A study of Mus musculus with 16 samples.

Results

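Socs3, Bcl3, Stat3, Junb, Pim1, Pim2, Pim3, Ier3, Osmr and Myc are genes known to respond quickly to STAT3 or to feed back on the signal that activates it. These 10 genes were taken by name from that role, with earlier results of these data known. A gene was measured through its probe set with the highest mean signal among the probe sets that name a single gene, and 9 of the 10 genes had such a probe set, 1 each. The only probe set naming Junb, which encodes an AP-1 subunit, also names Prdx2, so no value is given for Junb. All 9 measured genes were among the 22872 genes tested of 30102 with a single-symbol probe set. Osmr was close to the floor: it exceeded the 40th percentile of an array's signals on 9 of 16 arrays, namely 0 of 3 without LIF and 1 of 3 with LIF in the lines lacking a coiled coil, and 5 of 5 without LIF and 3 of 5 with LIF in the lines retaining it. The other 8 genes exceeded it on all 16 arrays.

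Expression was measured in total RNA of 8 male 129SV mouse embryonic stem cell (ESC) lines, each grown without LIF for 12 days to start differentiation and each grown with LIF in conventional ESC medium, with 1 array per line and condition. LIF is the cytokine that keeps mouse ESCs self-renewing, and MBD3 is a subunit of the NuRD chromatin-remodelling complex. The 3 lines lacking a coiled-coil-bearing MBD3 were cells null for MBD3 (Mbd3abc-KO) carrying an empty vector, the same knockout cells with MBD3a deleted for the coiled coil, and the same cells with MBD3a deleted for both the MBD and the coiled coil. The 5 lines retaining it were wild-type EBRTcH3 cells, the parent of the knockout, and Mbd3abc-KO cells with MBD3a, MBD3b, MBD3c or MBD3a deleted for the MBD. All lines other than EBRTcH3 thus shared the knockout and a stably introduced vector. The lines served as the replicates of a class, and the labels do not say whether each is a clone, which promoter drives the vector, or whether a second culture was made. The values below are log2 signals in the order empty vector, coiled-coil-deleted and doubly deleted for the lacking lines, and EBRTcH3, MBD3a, MBD3b, MBD3c and MBD-deleted for the retaining lines. Levels are compared within a gene only, because the signals of different probe sets are not on a common scale.

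As background, LIF binds the LIF receptor and gp130, the receptor chains bring Janus kinases together, and these phosphorylate STAT3, which moves to the nucleus and binds DNA at paired TTC and GAA half-sites. STAT3 induces Socs3, whose protein blocks the kinases at gp130 and so closes a negative feedback loop, and it also raises its own gene. In mouse ESCs this route keeps factors such as Klf4 and Tfcp2l1 expressed, and cells deprived of LIF leave the naive state over days. Several of the genes treated here, among them Myc, Ier3 and Osmr, are in addition induced by growth factors, inflammatory signals or adhesion in differentiated cells.

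The upstream promoters of Socs3, Bcl3 and Stat3 are printed because these are the 3 genes whose fall passed in both classes of lines, at the threshold given below. Pim3 was also lower without LIF in every line but did not pass in the lacking lines. Each is the stretch of 250 bases before the transcript start in the RefSeq table of build GRCm38.p6, on the minus strand, and capitals mark any match to TTCNNNGAA, where N is any base; this motif reads the same on both strands. Socs3 lies at chr11:117969367-117969616, Bcl3 at chr7:19822756-19823005 and Stat3 at chr11:100939541-100939790.
Socs3: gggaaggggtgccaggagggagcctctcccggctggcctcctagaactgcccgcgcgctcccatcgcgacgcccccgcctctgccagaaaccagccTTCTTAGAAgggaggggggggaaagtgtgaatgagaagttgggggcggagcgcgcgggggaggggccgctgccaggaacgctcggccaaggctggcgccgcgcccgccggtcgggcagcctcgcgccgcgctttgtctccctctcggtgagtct
Bcl3: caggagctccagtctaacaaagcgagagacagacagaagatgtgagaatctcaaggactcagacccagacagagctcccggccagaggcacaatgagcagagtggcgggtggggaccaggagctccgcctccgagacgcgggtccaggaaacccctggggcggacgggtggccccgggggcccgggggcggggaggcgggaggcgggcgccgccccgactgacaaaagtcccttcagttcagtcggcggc
Stat3: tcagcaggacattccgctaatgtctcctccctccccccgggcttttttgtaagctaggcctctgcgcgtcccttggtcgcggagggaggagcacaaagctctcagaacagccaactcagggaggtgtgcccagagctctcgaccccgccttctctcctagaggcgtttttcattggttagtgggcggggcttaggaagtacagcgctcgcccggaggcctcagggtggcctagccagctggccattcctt
In the whole windows of 300 bases, 250 upstream and 50 downstream, the motif had 1 match, TTCTTAGAA in Socs3 with its first base at position -154 from the start. The table held windows for 9 of the 10 genes, 10 windows in all as Pim1 has alternative starts, and Myc was not in it. The other 9 windows held no match, which says only that these letters are not in these windows. Of 32851 windows of all genes in the table, 2726 (8.3%) held a match.

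The 9 genes split by direction when LIF was withdrawn. Over all 8 lines 8 of them changed, 3 rising (Pim2, Ier3 and Myc) and 5 falling (Socs3, Bcl3, Stat3, Pim1 and Pim3), while Osmr did not pass. The call for Pim1 was lost with any line but coiled-coil-deleted left out (adjusted p 0.0542 to 0.11), and that for Ier3 with any retaining line left out (0.0592 to 0.0706). At the same threshold, an adjusted p under 0.05, 25.0% of all tested genes changed, 15.1% upward and 9.89% downward. In the retaining lines all 9 changed, with Osmr, tested mainly through the retaining arrays without LIF, added to the rises, beside 35.8% of tested genes (21.3% upward, 14.5% downward). In the lacking lines 4 of 9 changed, Pim2 upward and Socs3, Bcl3 and Stat3 downward, beside 2.93% of tested genes (1.71% upward, 1.22% downward). The median response of the 9 genes was -0.10 in the lacking lines and -0.23 in the retaining lines on the log2 scale, against -0.00 and 0.04 for all tested genes in the same classes. These arrays measure bulk RNA, so fewer cells expressing a gene and less RNA per cell cannot be told apart in any of these values.

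**Figure D1:**
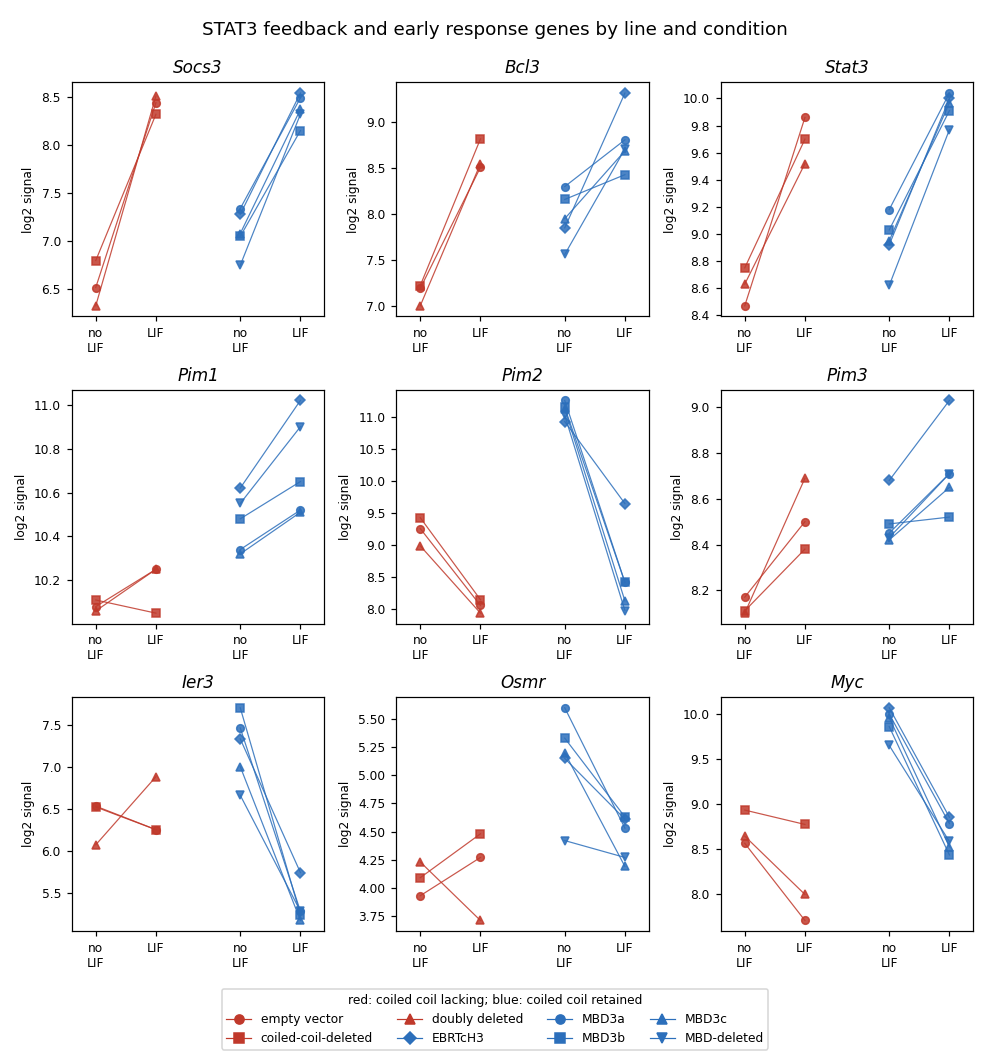
Log2 signal of each of the 9 measured genes, in a panel per gene, with lines lacking a coiled coil left of lines retaining it and, within a class, arrays without LIF left of arrays with LIF; symbols are single arrays and lines join the 2 arrays of a cell line. Socs3, Bcl3 and Stat3 slope upward from without LIF to with LIF in all 8 lines, and Pim2 slopes downward in all 8. Without LIF, Bcl3, Pim1, Pim2, Pim3, Ier3, Osmr and Myc lie lower in the 3 lacking lines than in the 5 retaining lines.

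Socs3, the feedback inhibitor, fell in both classes and was lower without LIF in each of the 8 lines. In the lacking lines it read 6.52, 6.80 and 6.33 without LIF, against 8.44, 8.32 and 8.51 with LIF. In the retaining lines it read 7.28, 7.34, 7.05, 7.08 and 6.75 without LIF, against 8.54, 8.49, 8.15, 8.37 and 8.32 with LIF. The conditions did not overlap in either class, and with LIF the classes were interleaved. The response averaged -1.87 ± 0.33 in the lacking lines (SD, n = 3) and -1.27 ± 0.18 in the retaining lines (SD, n = 5), which is 3.66-fold and 2.42-fold lower (adjusted p = 0.000104 and 4.84e-06). The fall was deeper in the lacking lines by -0.60 on the log2 scale (SE 0.17, adjusted p = 0.0424), although the classes overlapped: MBD-deleted, at -1.57, fell slightly more than coiled-coil-deleted, at -1.52. This difference missed the threshold with no filter on dim genes (adjusted p = 0.0574), with quantile normalization (0.0585), with arrays centred on their median (0.0654), and when any line other than MBD-deleted and coiled-coil-deleted was left out (0.072 to 0.185).

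Bcl3 encodes an atypical IkB protein that binds NF-kB subunits in the nucleus and is a known LIF target in ESCs. It read 7.19, 7.22 and 7.00 without LIF in the lacking lines, against 8.51, 8.82 and 8.55 with LIF. The retaining lines gave 7.85, 8.30, 8.16, 7.95 and 7.56 without LIF, against 9.32, 8.81, 8.43, 8.69 and 8.71 with LIF. All 8 lines were lower without LIF, and the retaining lines spread most, with responses between -1.47 in EBRTcH3 and -0.27 in MBD3b. The mean response was -1.49 ± 0.15 in the lacking lines (SD, n = 3, 2.81-fold lower, adjusted p = 0.00321) and -0.83 ± 0.48 in the retaining lines (SD, n = 5, 1.78-fold lower, adjusted p = 0.00118). The difference between the classes, -0.66 (SE 0.24), did not pass (adjusted p = 0.105). Without EBRTcH3, whose response lies among those of the lacking lines, it was -0.82 and passed (adjusted p = 0.0287).

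Stat3, the transcription factor itself, fell in both classes. It read 8.47, 8.75 and 8.63 without LIF in the lacking lines, against 9.86, 9.70 and 9.52 with LIF. In the retaining class the values were 8.92, 9.18, 9.03, 8.95 and 8.62 without LIF, against 10.00, 10.04, 9.91, 9.97 and 9.77 with LIF. No array without LIF reached any array with LIF. The responses were -1.08 ± 0.27 in the lacking lines (SD, n = 3) and -0.998 ± 0.13 in the retaining lines (SD, n = 5), 2.11-fold and 2.00-fold lower (adjusted p = 0.000958 and 1.03e-05). The difference between them was -0.08 with an SE of 0.15 (adjusted p = 0.795); its sign turned to 0.02 with arrays centred on their median.

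The Pim genes encode related serine/threonine kinases that promote survival and growth downstream of STATs, and they did not move together. Pim2 rose in both classes. It read 9.26, 9.43 and 8.99 without LIF in the lacking lines, against 8.06, 8.15 and 7.94 with LIF. Retaining lines read 10.93, 11.26, 11.15, 11.13 and 11.03 without LIF, against 9.65, 8.42, 8.42, 8.13 and 7.98 with LIF. Without LIF every lacking line lay below every retaining line, whereas with LIF the classes overlapped and EBRTcH3 stood above the other 7 lines. The rise averaged 1.18 ± 0.12 in the lacking lines (SD, n = 3, 2.26-fold, adjusted p = 0.0444) and 2.58 ± 0.74 in the retaining lines (SD, n = 5, 5.98-fold, adjusted p = 4.98e-06). The retaining mean covers 4 lines between 2.73 and 3.05 and EBRTcH3 at 1.28, which equals the rise of coiled-coil-deleted.

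The rise of Pim2 was smaller in the lacking lines by -1.40 on the log2 scale (SE 0.34, adjusted p = 0.0232). That call was kept with EBRTcH3 or MBD-deleted left out and lost with any other line left out, at adjusted p between 0.0514 and 0.0962. The rise within the lacking lines is equally close to the threshold: with MBD3a, MBD3b or MBD3c left out its adjusted p was 0.06 to 0.0694, and with any of the lacking lines left out it was 0.164 to 0.209.

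Pim1 and Pim3 had smaller responses. In the lacking lines Pim1 read 10.06 to 10.11 without LIF, against 10.05 to 10.25 with LIF; in the retaining lines it read 10.32 to 10.62 without LIF, against 10.51 to 11.02 with LIF. Its response was -0.10 ± 0.14 in the lacking lines (SD, n = 3, adjusted p = 0.722) and -0.26 ± 0.11 in the retaining lines (SD, n = 5, adjusted p = 0.0209), with all 5 retaining lines lower and coiled-coil-deleted, at 0.06, the only line that was not. Pim3 read 8.10 to 8.17 without LIF in the lacking lines, against 8.38 to 8.69 with LIF, and 8.42 to 8.68 without LIF in the retaining lines, against 8.52 to 9.03 with LIF. All 8 lines were lower without LIF, by a mean of -0.40 ± 0.17 in the lacking lines (SD, n = 3, adjusted p = 0.0707) and -0.23 ± 0.12 in the retaining lines (SD, n = 5, adjusted p = 0.043). The difference in response between the classes passed for neither gene (0.16, SE 0.13, adjusted p = 0.472 for Pim1; -0.17, SE 0.13, adjusted p = 0.468 for Pim3). The retaining calls are fragile: without EBRTcH3 or MBD-deleted the adjusted p for Pim1 was 0.0795 and 0.05, and for Pim3 it reached 0.0503 to 0.132 with 6 of the 8 lines left out in turn, MBD3b and doubly deleted being the exceptions.

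Ier3, an immediate early gene linked to survival under stress, had the largest difference in response between the classes among the 9 genes. The lacking lines read 6.53, 6.52 and 6.07 without LIF, against 6.25, 6.25 and 6.88 with LIF. The retaining lines had 7.33, 7.46, 7.70, 7.00 and 6.66 without LIF, against 5.74, 5.28, 5.24, 5.17 and 5.28 with LIF. The lacking lines thus lay below all 5 retaining lines without LIF and above all 5 with it. The lacking lines averaged -0.09 ± 0.63 (SD, n = 3, adjusted p = 0.919), with empty vector at 0.28, coiled-coil-deleted at 0.27 and doubly deleted at -0.81. In the retaining lines Ier3 rose by 1.89 ± 0.44 (SD, n = 5, 3.70-fold, adjusted p = 1.52e-05). The difference was -1.98 (SE 0.29, adjusted p = 0.00185), and the response was smaller in each of the 3 lacking lines than in any of the 5 retaining lines. This call was kept with every line left out in turn, and the sign of the mean in the lacking lines turned to 0.28 without doubly deleted.

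Osmr encodes the receptor chain that pairs with gp130 to bind oncostatin M. The 3 lacking lines gave 3.93, 4.09 and 4.23 without LIF, against 4.27, 4.48 and 3.71 with LIF. In retaining lines the signal was 5.15, 5.60, 5.33, 5.20 and 4.42 without LIF, against 4.61, 4.53, 4.63, 4.19 and 4.27 with LIF. The highest values were those of 4 retaining lines without LIF, all but MBD-deleted. The lacking lines averaged -0.07 ± 0.51 (SD, n = 3, adjusted p = 0.923), and in the retaining lines Osmr rose by 0.69 ± 0.37 (SD, n = 5, 1.62-fold, adjusted p = 0.00456). The difference, -0.76 (SE 0.25), did not pass (adjusted p = 0.0751), but passed without MBD-deleted (-0.90, adjusted p = 0.0229) or without doubly deleted (-1.06, adjusted p = 0.0303). A signal this near the floor limits what can be measured of the size of the change.

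Myc, the growth-promoting transcription factor that STAT3 supports in ESCs, was higher without LIF in all 8 lines. In lacking lines the signal was 8.56, 8.93 and 8.64 without LIF, against 7.70, 8.77 and 7.99 with LIF. The 5 retaining lines read 10.07, 10.00, 9.86, 9.96 and 9.65 without LIF, against 8.85, 8.78, 8.43, 8.52 and 8.58 with LIF. The 2 conditions were separate in the retaining lines and overlapped in the lacking lines, where coiled-coil-deleted with LIF, at 8.77, was already at the level of the retaining lines. The lacking lines averaged 0.56 ± 0.36 (SD, n = 3, 1.47-fold), which just missed the threshold (adjusted p = 0.0519) and passed without coiled-coil-deleted (0.76, adjusted p = 0.0331) or MBD-deleted (0.56, adjusted p = 0.0393). In the retaining lines Myc rose by 1.28 ± 0.16 (SD, n = 5, 2.42-fold, adjusted p = 4.85e-06). The difference was -0.72 (SE 0.17, adjusted p = 0.0193), with the response of each lacking line below that of each retaining line, and it was lost without coiled-coil-deleted (-0.52, adjusted p = 0.0934) or doubly deleted (-0.77, adjusted p = 0.0541).

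**Figure D2:**
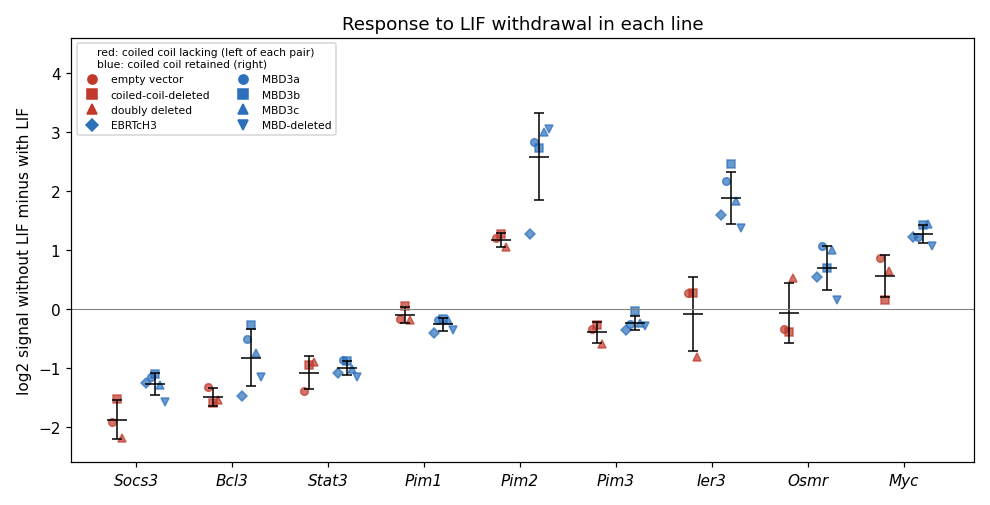
Response to LIF withdrawal (log2 signal without LIF minus with LIF) of the 9 genes, with the 3 lines lacking a coiled coil left of the 5 lines retaining it for each gene; points are lines, bars are class means with SD, and 0 marks no change. Socs3, Bcl3 and Stat3 lie below 0 in all 8 lines and Pim2 above 0 in all 8, and Ier3 and Myc are the 2 genes whose classes do not overlap.

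Set side by side, the response differed between the classes for 4 of the 9 genes (Socs3, Pim2, Ier3 and Myc), and in each the difference was negative: a deeper fall for Socs3, a smaller rise for Pim2 and Myc, and, for Ier3, a rise in the retaining lines beside a mean near 0 in the lacking lines. Of all tested genes 12.1% differed, 4.17% upward and 7.9% downward. The median difference of the 9 genes was -0.66, against -0.05 over all tested genes. The count among the 9 genes was 2 when any 1 of MBD3a, MBD3b, MBD3c, empty vector, coiled-coil-deleted or doubly deleted was left out. Of tested genes, 5.92% to 11.5% passed in those fits. Without doubly deleted, only Ier3 of the 4 was kept, and Osmr passed in addition. The count was also 2 with the run of sample titles as a covariate (Pim2 and Ier3), beside 8.2% of tested genes. Titles are numbered in 2 runs, the first holding EBRTcH3, MBD3a, MBD3b, MBD3c and empty vector and the second MBD-deleted, coiled-coil-deleted and doubly deleted; what the runs stand for is not given in the labels. Within the first run, where empty vector is the only lacking line, the differences were -0.72 for Socs3, -1.26 for Pim2, -1.74 for Ier3 and -0.47 for Myc, and that of Ier3 passed (adjusted p = 0.0405). Within the second run, of 3 lines, they were -0.28, -1.89, -1.65 and -0.67 for the same genes, and none passed (adjusted p 0.258 to 0.773; 2 of the 9 genes had an unadjusted p under 0.05). Of all 22872 tested genes, 0 passed for the difference in that run.

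More of the 9 genes differed in level between the classes without LIF than with LIF. In size, Ier3 and Pim1 went against this, with a larger difference with LIF (1.12 and -0.54) than without (-0.86 and -0.38). Without LIF, 8 of the 9 genes were lower in the lacking lines, Stat3 being the exception (-0.32, SE 0.12, adjusted p = 0.0958), beside 20.9% of tested genes that differed (8.55% higher, 12.4% lower). Among the 8, Osmr exceeded the 40th percentile on 0 of 3 lacking arrays without LIF and was tested through the retaining lines, where it is high, so its difference is a description only. For 6 of the others, Bcl3, Pim1, Pim2, Pim3, Ier3 and Myc, every lacking line read below every retaining line. The largest gap was that of Pim2, at -1.87 (SE 0.11, 3.66-fold lower, adjusted p = 5.89e-06), followed by Myc at -1.20 (SE 0.12, 2.29-fold lower, adjusted p = 0.000108). Ier3 (-0.86), Bcl3 (-0.83), Socs3 (-0.55), Pim1 (-0.38) and Pim3 (-0.37) followed, with adjusted p between 0.00386 and 0.0249. Without doubly deleted the count was 5, beside 13.2% of tested genes, with Socs3, Pim1 and Ier3 missing the threshold at adjusted p of 0.118, 0.0551 and 0.0975.

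With LIF, 2 of the 9 genes differed between the classes, in opposite directions, beside 14.1% of tested genes (7.65% higher, 6.48% lower). Ier3 was higher in the lacking lines by 1.12 (SE 0.17, 2.17-fold, adjusted p = 0.00174), and Pim1 was lower by -0.54 (SE 0.14, adjusted p = 0.0237). Both were without overlap between the classes. The Pim1 call was lost without coiled-coil-deleted (adjusted p = 0.11) or doubly deleted (0.0597), and Myc, at -0.48 with all lines (adjusted p = 0.156), passed without coiled-coil-deleted (-0.79, adjusted p = 0.0111). Socs3, Bcl3 and Stat3 did not pass with LIF. Socs3 differed by 0.05 (SE 0.11), Bcl3 by -0.17 (SE 0.17) and Stat3 by -0.25 (SE 0.11), with adjusted p between 0.171 and 0.821. The sign for Socs3 turned to -0.03 with arrays centred on their median.

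Within the retaining class the lines were not alike. With LIF, EBRTcH3 was the highest of the 5 retaining lines for 7 of the 9 genes (all but Stat3 and Osmr), which was so for 24.0% of tested genes. Without LIF, MBD-deleted was the lowest of the 5 for 6 of the 9 (Socs3, Bcl3, Stat3, Ier3, Osmr and Myc), which was so for 23.1% of tested genes. Each position is that of a single array, so neither has a test. Only these 2 combinations of line, condition and extreme were counted, and the shares of all tested genes do not allow for that choice. Mbd3, the targeted gene, read 7.45 without LIF and 7.00 with LIF in empty vector, the lowest of the 8 lines in each condition, and 8.45 to 9.59 in the other 7 lines.

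Among the other genes of the pathway, taken from lists written with earlier results of these data known, more changes passed in the retaining lines than in the lacking lines, as over all tested genes, of which 2.93% passed in the lacking lines (1.71% upward, 1.22% downward) and 35.8% in the retaining lines (21.3% upward, 14.5% downward). For the lists where limma called 0 genes in the lacking lines, the number with an unadjusted p under 0.05 was 0 for receptor chains, 0 for Janus kinases and other STATs, 0 for SOCS family and other inhibitors, 1 for NF-kB and IkB genes and 1 for Myc family genes. Of the 7 tested ligands that act through gp130, 1 passed: Lif itself rose in both classes, by 0.76 in the lacking lines (SE 0.12, adjusted p = 0.00794) and 0.52 in the retaining lines (SE 0.09, adjusted p = 0.00101). Lif read 7.15, 7.57 and 7.10 without LIF in the lacking lines, against 6.34, 6.67 and 6.52 with LIF, so each lacking line was higher without LIF; the call there was lost without empty vector or without coiled-coil-deleted. Of the 5 receptor chains other than Osmr, 0 passed in the lacking lines, and 1 rose and 1 fell in the retaining lines. Lifr, the LIF receptor, stood at -0.44 in the lacking lines (SE 0.24, adjusted p = 0.44) and fell by 1.58 in the retaining lines (SE 0.19, adjusted p = 6.93e-05), a difference of 1.14 (SE 0.30, adjusted p = 0.034) that was lost when any of 6 lines was left out. Cntfr, a chain for ciliary neurotrophic factor, rose by 0.56 in the retaining lines (SE 0.11, adjusted p = 0.00175).

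Of 8 Janus kinases and other STATs, 0 passed in the lacking lines, and 1 rose and 3 fell in the retaining lines, beside 2.93% and 35.8% of all tested genes. In the retaining lines Stat4 fell by 1.10 (SE 0.16), Stat6 fell by 0.54 (SE 0.08) and Jak2 rose by 0.51 (SE 0.10), with adjusted p from 0.00025 to 0.00154. Of 15 SOCS family members and other inhibitors besides Socs3, 0 passed in the lacking lines, and 3 rose and 3 fell in the retaining lines, a share of 40% near the 35.8% of all tested genes. Socs2, which restrains growth hormone and related signals, went the other way from Socs3 between the classes. It read 10.56, 10.60 and 10.60 without LIF in the lacking lines, against 10.55, 10.42 and 10.44 with LIF. Retaining lines gave 9.98, 10.03, 10.32, 9.88 and 10.54 without LIF, against 11.35, 11.17, 11.24, 11.24 and 11.02 with LIF. Each retaining line was lower without LIF and each lacking line was not. The responses were 0.12 (SE 0.16, adjusted p = 0.811) and -1.05 (SE 0.12, adjusted p = 5.58e-05) in the same order, and they differed by 1.17 (SE 0.20, adjusted p = 0.00367), kept with every line left out in turn. Socs1, another inhibitor of Janus kinases, rose by 0.43 in the retaining lines (SE 0.10, adjusted p = 0.00432).

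Of 20 other immediate early genes tested, 2 rose and 1 fell in the lacking lines, beside 1.71% and 1.22% of all tested genes. In the retaining lines 9 of the 20 rose and 3 fell, beside 21.3% and 14.5% of all tested genes. Ccn1, a matrix protein induced by serum, rose by 0.99 in the lacking lines (SE 0.16, adjusted p = 0.00876) and 2.46 in the retaining lines (SE 0.12, adjusted p = 1.62e-07), and Jun, an AP-1 subunit, rose by 1.34 in the retaining lines (SE 0.10, adjusted p = 2.66e-06). Fosl2, another AP-1 subunit, read 6.71, 6.76 and 6.73 without LIF in the lacking lines, against 6.44, 6.81 and 6.79 with LIF, and 7.63, 7.97, 7.93, 7.98 and 7.34 without LIF in the retaining lines, against 6.58, 6.48, 6.36, 6.72 and 6.62 with LIF. Its response differed by -1.16 (SE 0.19, adjusted p = 0.00352), that of Ccn1 by -1.47 (SE 0.20, adjusted p = 0.00118) and that of Zfp36, a factor that destabilizes inflammatory mRNAs, by -1.24 (SE 0.26, adjusted p = 0.0118); all 3 calls were kept with every line left out in turn. In all, 5 of the 20 differed between the classes and all 5 differences were negative, beside 12.1% of tested genes (7.9% downward, 4.17% upward). Ccn2, a matrix protein related to Ccn1, rose in both classes, by 0.93 in the lacking lines and 0.99 in the retaining lines, and Klf10 fell in both, by 0.84 each. In the lacking lines these calls were lost with 1 or 2 lines left out: Ccn1 without coiled-coil-deleted or doubly deleted, Ccn2 without coiled-coil-deleted and Klf10 without empty vector.

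Of 9 NF-kB and IkB family genes other than Bcl3, 0 passed in the lacking lines, and 5 rose and 1 fell in the retaining lines, beside 2.93% and 35.8% of all tested genes. Rela rose there by 0.74 (SE 0.09, adjusted p = 7.3e-05) and Nfkb2 by 0.60 (SE 0.10, adjusted p = 0.000594), while Nfkbia, an inhibitor of NF-kB, fell by 0.46 (SE 0.08, adjusted p = 0.00125). Of 9 other Myc family genes and partners, 0 passed in the lacking lines, and 1 rose and 2 fell in the retaining lines, a share of 33.3% near the 35.8% of all tested genes. Those that fell, Mga by 0.86 (SE 0.13, adjusted p = 0.00044) and Mxd1 by 0.55 (SE 0.07, adjusted p = 7.82e-05), encode proteins that compete with Myc for its partner Max, and so does Mxd4, which rose by 0.37 (SE 0.09, adjusted p = 0.0072).

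Of 7 tested LIF-driven factors of the naive state, 4 fell in the lacking lines and 6 in the retaining lines, and none rose in either, beside 1.22% of all tested genes that fell in the lacking lines and 14.5% in the retaining lines. Klf4 fell by 1.73 in the lacking lines (SE 0.13, adjusted p = 0.000113) and by 2.44 in the retaining lines (SE 0.10, adjusted p = 4.96e-08). Klf4 read 8.62, 8.77 and 8.50 without LIF in the lacking lines, above all the retaining lines without LIF, which read 7.93, 8.04, 7.92, 7.69 and 7.71. The response differed between the classes by 0.70 for Klf4 (SE 0.16, adjusted p = 0.0179), 0.84 for Tfcp2l1 (SE 0.23, adjusted p = 0.0368) and 1.18 for Esrrb (SE 0.20, adjusted p = 0.0035), and 4 of the 7 differed, all upward, beside 4.17% of tested genes that differed upward. The median difference of these 7 was 0.69, against -0.66 for the 9 STAT3 feedback and early response genes and -0.05 for all tested genes. The Klf4 difference was lost without coiled-coil-deleted and the Tfcp2l1 difference with any of 7 lines left out, while that of Esrrb was kept with every line left out in turn.

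**Figure D3:**
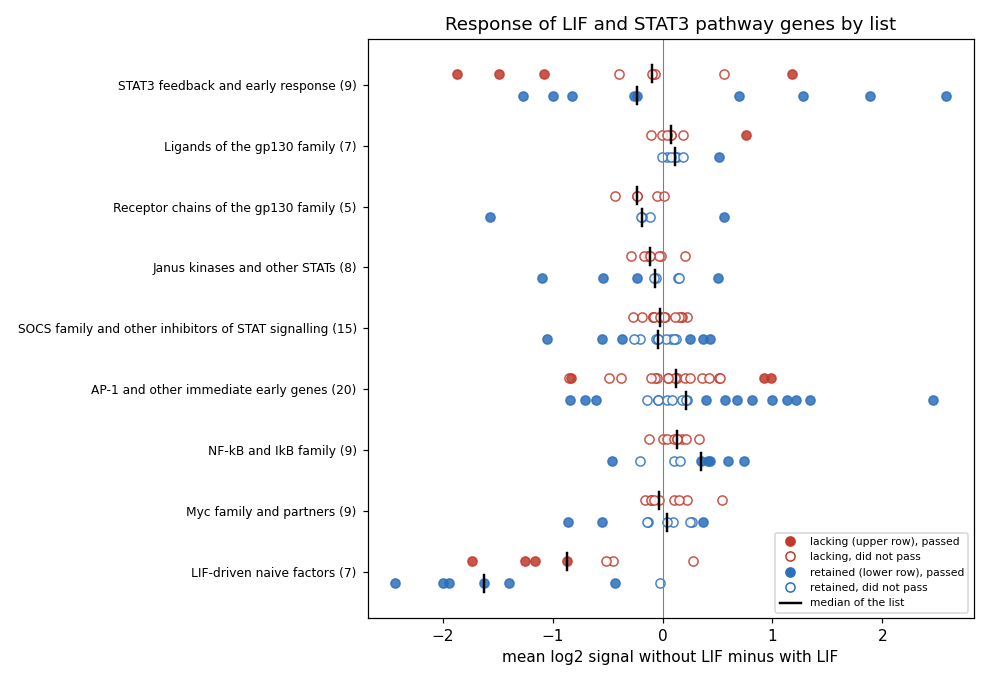
Fitted response to LIF withdrawal (mean log2 signal without LIF minus with LIF) of each tested gene, by list, with the number tested in brackets; the upper row of a list is the lines lacking a coiled coil (red) and the lower row the lines retaining it (blue), filled symbols passed at an adjusted p under 0.05, and black ticks are list medians. The STAT3 feedback and early response genes run from -1.87 to 1.18 in the lacking lines and from -1.27 to 2.58 in the retaining lines, on both sides of 0, whereas the naive factors that passed are all below 0.

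The labelled cell type and markers of other cells were read beside these results. All 10 markers of ESCs exceeded the 40th percentile on all 16 arrays, with a mean signal of 11.24 to 11.37 without LIF and 11.50 to 11.59 with LIF in the lacking lines, and 10.81 to 11.38 without LIF and 11.46 to 11.66 with LIF in the retaining lines. Markers of trophoblast and simple epithelium averaged 7.91 to 8.12 without LIF and 7.12 to 7.52 with LIF in the lacking lines. The retaining lines averaged 8.39 to 9.67 without LIF and 6.30 to 6.82 with LIF. The lacking lines thus lay below the retaining lines without LIF and above them with LIF, as for Ier3. Pim2, Osmr and Myc went the other way with LIF, at -0.47, -0.29 and -0.48 for lacking minus retaining, and did not pass there. Of the 9 markers tested, 3 rose in the lacking lines and 7 rose and 1 fell in the retaining lines. Of all tested genes 1.71% rose in the lacking lines and 21.3% in the retaining lines, which is also the background for the 2 lists that follow. Markers of smooth muscle and mesenchyme averaged 6.77 to 7.26 without LIF and 5.94 to 6.51 with LIF in the lacking lines, against 8.40 to 9.03 without LIF and 6.08 to 6.29 with LIF in the retaining lines, and 4 of 8 rose in the lacking lines and 7 of 8 in the retaining lines. Fibroblast feeder markers, of which 0 of 7 passed in the lacking lines and 5 of 7 rose in the retaining lines (1 of 7 at an unadjusted p under 0.05 in the lacking lines), averaged 5.56 to 5.64 without LIF and 5.52 to 5.82 with LIF in the lacking lines, against 5.67 to 6.25 without LIF and 5.27 to 5.42 with LIF in the retaining lines. Of the 8 feeder markers, 6 (Col1a1, Col1a2, Col3a1, Thy1, Cd44 and Pdgfrb) exceeded the 40th percentile on all 16 arrays, Dcn did on 3 retaining arrays without LIF and on no other, and Lum did on none. Dcn is among the 7 tested only through those retaining arrays, where it is high, so its part in the counts is a description only. Lum was not tested. Of 7 primitive endoderm markers tested, 0 rose and 1 fell in the lacking lines, and 3 rose and 3 fell in the retaining lines. Of 4 haematopoietic markers tested, 1 rose in each class and 0 fell. Of all tested genes 2.93% passed in the lacking lines and 35.8% in the retaining lines. The part of these other cell types in the responses described here was not tested.

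Across the 16 arrays, the genes whose signal ran most like that of Socs3 included 2 of the other genes treated here. By Pearson correlation over the tested genes that were ranked, they were Pros1 (r = 0.968), Stat3 (0.962), Urah (0.939), Nsun4 (0.936) and Bcl3 (0.931). Here and for Ier3, symbols with the form of predicted genes, clones or small RNAs were left out of the ranking. So was any symbol starting with A, C, D or E and a digit, so a closer gene may have been left out. The remaining genes treated here were further from Socs3: r was 0.758 for Pim3, 0.44 for Pim1, -0.172 for Osmr, -0.512 for Myc, -0.533 for Ier3 and -0.628 for Pim2. Nearest to Ier3 were Cln6 (0.961), Slc44a2 (0.959), Ergic1 (0.951), Syngr2 (0.948) and Rnf26 (0.946), none of them a STAT3 feedback or early response gene as listed here. Slc44a2, for example, read 9.33, 9.42 and 9.13 without LIF in the lacking lines, against 9.18, 9.28 and 9.35 with LIF, and 10.03, 10.04, 9.84, 9.97 and 9.58 without LIF in the retaining lines, against 8.46, 8.41, 8.45, 8.42 and 8.46 with LIF, with the lacking lines below all retaining lines without LIF and above all of them with LIF, as for Ier3. These correlations describe arrays that share lines and conditions and carry no test.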

How the data were processed

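Total RNA from 8 cell lines in 2 conditions was hybridized to 16 Affymetrix arrays, 1 for each line and condition. Per the submitters' processing notes, RMA in the affy package produced the log2 values the authors deposited, with no version or probe set definition stated there. RMA scales arrays together, so a shift common to most genes would be removed. Array medians were 4.72 to 4.85 and correlations between arrays 0.971 to 0.995; the number of arrays limits the precision.

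Of 65770 probe sets, 27 had no value, 30439 named a single gene and were used, 2146 named several and 33158 none. Symbols were updated by Entrez identifier (22653 matched, 827 updated). The probe set with the highest mean was kept for each of 30102 genes, and 22872 genes that exceeded the 40th percentile of signals on 3 or more arrays were tested with limma 3.58.1 in R 4.3.3. A gene passed at a Benjamini-Hochberg adjusted p under 0.05 over all tested genes. The withdrawal fits used the line as a block, since the labels give both arrays of a line the same cell line; class comparisons were fitted in each condition. The fits were run on simulated data with independent noise, without an effect of the title run or an outlying line. That run checks the code and not how well the calls hold in these lines. P-values measure the spread between lines, estimated jointly from both classes. The SE and p-value of a class thus do not rest on the SD of its own lines alone. For the Pim2 response the lacking lines had an SD of 0.117 and an SE of 0.272, beside an SD of 0.738 in the retaining lines. Leaving out a retaining line can therefore change a call in the lacking lines.

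The genes and lists were chosen with earlier results of these data known. Named by rule were the 10 genes, Mbd3, up to 3 genes with the largest change among those that passed from each list and withdrawal comparison (a part is printed), and the 5 genes most correlated with Socs3 and with Ier3. That last ranking left out symbols with the form of predicted genes, clones or small RNAs. Alternatives were the filter, probe sets averaged, quantile normalization, median centring, trended and robust moderation, the run of titles, the block, and each line left out.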

Additional observations from a re-analysis of the deposited data

Results flagged for a closer look

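In 4 of 27 sets of 5 retaining lines (9 genes, each with LIF, without LIF and in response), 1 line stood apart from the others by Dixon's criterion. Chance meets this criterion in about 1 in 20 independent sets, but these sets are not independent. A response is the difference between the values without and with LIF of the same gene, and all genes share the arrays. In all 4 sets the line was EBRTcH3, the wild-type line that is not a knockout. Pim2 with LIF read 9.65 in EBRTcH3, with the other 4 retaining lines at 7.98 to 8.42, and its response was 1.28, with the others at 2.73 to 3.05. Pim3 without LIF read 8.68 in EBRTcH3, with the others at 8.42 to 8.49. Ier3 with LIF read 5.74 in EBRTcH3, with the others at 5.17 to 5.28.

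For 4 genes the lines lacking a coiled coil responded to LIF withdrawal differently from those retaining it, by the test of the difference itself. The difference, lacking minus retaining, was -0.60 for Socs3, -1.40 for Pim2, -1.98 for Ier3 and -0.72 for Myc. The effect was negative for each; among these, the call for Ier3 was kept with every line left out in turn and those for Socs3, Pim2 and Myc were not.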

How the results depend on the processing

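Of 948 single-gene values for these 9 genes under the alternatives, 813 kept their direction and side of the threshold, 107 lost the call, 15 gained it and 13 changed sign; of 774 for the named pathway genes, 627 kept both, 145 lost the call and 2 changed sign. No sign change among the 9 genes concerned a value that had passed. Ier3 in the lacking lines was 0.087 with the title run as a covariate, 0.28 in the first run and -0.27 to 0.275 with 1 line left out. Osmr in the lacking lines was 0.065 in the second run and -0.365 to 0.09 with 1 line left out. The Stat3 difference in response was 0.02 with median centring, 0.23 in the second run and -0.172 to 0.078 with 1 line left out, and Stat3 without LIF was 0.07 in the second run. Socs3 with LIF was -0.03 with median centring and -0.007 to 0.101 with 1 line left out, and Pim2 with LIF was 0.065 in the second run. Pias2, an inhibitor of STAT signalling, stood at 0.24 in the second run for the retaining lines, where it otherwise fell by 0.55, and at -0.01 for the difference, where it was otherwise 0.77.

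The second run alone, an alternative chosen after seeing the data, holds 3 lines, and there limma called 2 over all lines, 0 in the retaining lines, 0 in the lacking lines, 0 for the difference, 0 with LIF and 0 without LIF; at an unadjusted p under 0.05 the counts were 6, 6, 5, 2, 2 and 4. Of all 22872 tested genes, 18 passed there over all lines and 0 in each of the other 5 comparisons. In the first run, where empty vector is the only lacking line and is assumed to vary like the others, limma called 8 over all lines, 8 in the retaining lines, 2 in the lacking lines, 1 for the difference (Ier3), 1 with LIF and 5 without LIF, beside 33.9%, 37.8%, 0.367%, 3.2%, 2.97% and 7.97% of all tested genes in the same order. With the title run as a covariate 2 differences passed, beside 8.2% of all tested genes. With 1 line left out the count was 2 to 5 for the difference, 1 to 2 with LIF and 5 to 9 without LIF. Of all tested genes 5.92% to 17.1%, 7.78% to 16.9% and 13.2% to 23.8% passed in the same order. With no replicate block (line not in the model), 7 genes passed over all lines, 7 in the retaining lines, 4 in the lacking lines and 3 for the difference. Of all tested genes 22.7%, 36.1%, 3.03% and 12.7% passed there in the same order. Pim1 over all lines (adjusted p = 0.313) and in the retaining lines (0.0551), Pim3 in the retaining lines (0.062) and the Myc difference (0.0774) were lost without the block. Where a call was lost with all lines in the fit, the cause was not tested. Osmr lies nearest to the floor of the arrays, which limits what can be measured of its change.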
